A study of Caenorhabditis elegans with 2 samples.

Results

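The genes with the Ensembl biotype ncRNA in Caenorhabditis elegans are a large and mostly unnamed group, and 1468 of the 30000 candidate regions of a chromatin immunoprecipitation for the transcription factor HLH-13 had their summit at one of them. A region was a member if its summit, the position of highest enrichment inside it, lay in such a gene or within 100 bp of one. Regions within 100 bp of a tRNA, snoRNA, snRNA or miRNA gene, or of rpr-1, mrpr-1, srpr-1.2, srpr-2.1 or srpr-2.2, were left out. The choice used positions only and no signal value. Without those exclusions 1724 candidates lay at ncRNA genes, so 256 were removed.

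The series held 1 group of 2 biological replicates of the strain OP744. Its worms carry the insertion wgIs744, in which hlh-13 is fused to TY1, EGFP and 3xFLAG tags beside a working unc-119(+) copy, in the mutant background unc-119(tm4063), and both replicates share all of this. Whole late embryos of both sexes, aged 3.5 hours and obtained by egg bleaching, were used with an antibody against GFP, and chromatin fragments were 200 to 800 bp long. All values come from 1 transgenic strain in which tagged HLH-13 is made from an inserted copy of its gene, and from whole embryos, so no cell type can be assigned to a region. Samples of an untagged strain were not analysed here, and how much of any region's signal depended on the tag was not tested. The authors deposited a list of 30000 candidates per replicate and 1 of the pooled reads, each region with their own signal value, a measure of enrichment whose scale the sources do not state. They kept an optimal set, which was the 1.41% of pooled candidates with the highest signal. No read counts are in these lists, so the depth was unknown.

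HLH-13 belongs to the basic helix-loop-helix proteins, which bind DNA as pairs at the E-box CANNTG. Non-coding RNA genes are read by different polymerases: short structured RNAs such as tRNAs are made by RNA polymerase III from an A box and a B box, while other short RNAs are read from elements upstream of the gene, among them a proximal element and a TATA box. The annotated ncRNA class of this worm holds 7764 genes, from 17 to 14770 bp long with a median of 140 bp, and 7759 remained after the 5 named genes were set aside. RefSeq describes 7779 transcripts as unclassified non-coding RNA and gives them no role, so the genes below are known mainly by position.

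The optimal set held 24 of the 1468 members, or 1.63% (95% Wilson interval 1.10 to 2.42%), and 5 of them were among the 100 pooled regions of highest signal. Before the exclusions 143 optimal peaks lay at ncRNA genes, and the exclusions removed 119 of these. The sequences at 7 of the 24 carry the features on which the results turn. All coordinates are 1-based on WBcel235, the same assembly as ce11, and the sequences are from the RefSeq copy of it. Each is written 5′ to 3′ on the strand of the gene named, with the feature in capitals.

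The first 3 are shown because a pair of elements, CATTCCTC and TATATATA, stands upstream of the gene in each. The capitals mark both elements, and each stretch ends at the last base of the gene. They lie at chrII:14804402-14804559 on the plus strand, chrII:13834449-13834603 on the minus strand and chrII:14804715-14804876 on the plus strand.
W01D2.7: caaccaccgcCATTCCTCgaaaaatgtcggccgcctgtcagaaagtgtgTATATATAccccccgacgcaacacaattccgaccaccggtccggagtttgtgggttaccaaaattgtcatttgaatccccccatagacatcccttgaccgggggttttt
F08G2.13: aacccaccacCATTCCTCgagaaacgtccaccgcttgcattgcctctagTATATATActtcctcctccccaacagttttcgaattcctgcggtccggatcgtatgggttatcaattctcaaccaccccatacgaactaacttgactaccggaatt
W01D2.9: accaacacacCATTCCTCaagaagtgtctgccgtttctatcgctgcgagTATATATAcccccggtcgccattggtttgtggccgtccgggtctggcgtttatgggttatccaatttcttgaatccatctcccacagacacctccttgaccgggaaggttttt

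The next 3 are shown because they hold letters of the B box, marked in capitals, and T28D6.10 also those of the A box, the first of its capital runs. They lie at chrX:6207753-6207991 on the plus strand, chrIII:11371357-11371484 on the minus strand and chrII:14497050-14497170 on the plus strand. The first is the whole deposited region, and the others run to the last base of the gene.
C14F11.14: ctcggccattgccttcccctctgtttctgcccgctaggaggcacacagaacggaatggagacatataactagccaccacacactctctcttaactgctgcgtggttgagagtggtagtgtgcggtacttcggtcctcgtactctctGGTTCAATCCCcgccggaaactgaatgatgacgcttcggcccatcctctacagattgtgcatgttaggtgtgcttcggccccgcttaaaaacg
T28D6.10: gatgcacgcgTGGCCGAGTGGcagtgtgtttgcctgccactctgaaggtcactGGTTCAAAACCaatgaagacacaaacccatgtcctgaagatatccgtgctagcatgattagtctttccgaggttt
K10H10.11: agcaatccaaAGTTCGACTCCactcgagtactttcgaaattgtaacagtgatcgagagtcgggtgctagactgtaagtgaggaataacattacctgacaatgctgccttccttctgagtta

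The last is shown as an example of a long GT repeat at a summit, marked in capitals, and covers 60 bases on each side of the summit at chrX:11643904-11644024 on the minus strand.
Y71H9A.9: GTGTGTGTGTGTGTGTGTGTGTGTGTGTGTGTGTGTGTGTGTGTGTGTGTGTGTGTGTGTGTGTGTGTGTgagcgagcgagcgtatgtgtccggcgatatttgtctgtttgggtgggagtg

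The 1468 members stood higher in the pooled list than candidates elsewhere. Their median signal was 37.2, against 33.9 for the 27997 candidates that lay at none of the ncRNA, tRNA, snoRNA, snRNA or miRNA genes, and their median rank percentile was 38.6, where a lower value is a stronger region, against 51.2. The share of members in the optimal set, 1.63%, was close to the 1.41% of all 30000 candidates, which alone is no result about the members. That background holds the regions at tRNA genes, of which 45.1% were optimal, and at snoRNA genes, of which 40.5% were. Among the 29465 candidates away from the excluded genes, members included, 0.706% were optimal. For the 27997 that were not members the share was 0.657% (0.569 to 0.759%), an interval that does not overlap that of the members. These intervals cover the number of regions only, and neighbouring regions are not independent, so no test was made.

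Candidates at ncRNA genes differed from the others in where they lay and in base composition. The summit was in a coding exon in 4.97% of members and 30.7% of the other candidates. Outside coding exons, 1.72% of 1395 members were optimal, against 0.902% of 19409 other candidates and 0.957% of both together. The mean G+C content within 50 bp of the summit was 45.2% in members and 41.6% in the other candidates, and in both groups it was higher within the best 1000 ranks than beyond rank 1000. It was not highest at the very top: at ranks 1 to 100 it was 48.1% in members and 48.0% in the other candidates, and in the rest of the optimal set 52.4% in members and 49.1% in the other candidates. Whether G+C content bears on the difference in rank was not tested.

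Among candidates away from the excluded genes, the part at ncRNA genes was larger near the top of the list. Members made up 5 of 21 such candidates at ranks 1 to 100 (23.8%), 19 of 187 in the rest of the optimal set (10.2%) and 62 of 518 from there to rank 1000 (12.0%). Lower in the list they made up 7.97% from there to rank 3000, 5.83% from there to rank 10000 and 4.14% beyond. Of all candidates, those at the excluded genes included, members made up 4.89%, and by the same steps 5.0%, 5.88%, 10.7%, 7.75%, 5.76% and 4.12%. On that scale the share was highest between the end of the optimal set and rank 1000, and at ranks 1 to 100 it was near that of the whole list. Chromosome X held 508 members (34.6%), against 15.3% of the other candidates. The annotated ncRNA genes were placed alike, with 32.5% of them on X, so that the share of members there was near the share of the genes that define them. On X 1.97% of members were optimal, against 0.606% of the other candidates there, and on the autosomes 1.46% of members, against 0.666%. The counts on single autosomes were small, and differences among them were not tested. On chromosome II 6 of 198 members were optimal (3.03%), against 0.441% of the other candidates, and on V 2 of 275 (0.727%), against 0.676%. Of the 6 on II, those at W01D2.7 and W01D2.9 overlap the same region in each replicate list. On I 3 of 138 members were optimal (2.17%), against 0.769%, and on III 3 of 157 (1.91%), against 0.814%. On IV 0 of 192 members were optimal, which allows a share of up to 1.56%, against 0.617% of the other candidates.

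**Figure D1:**
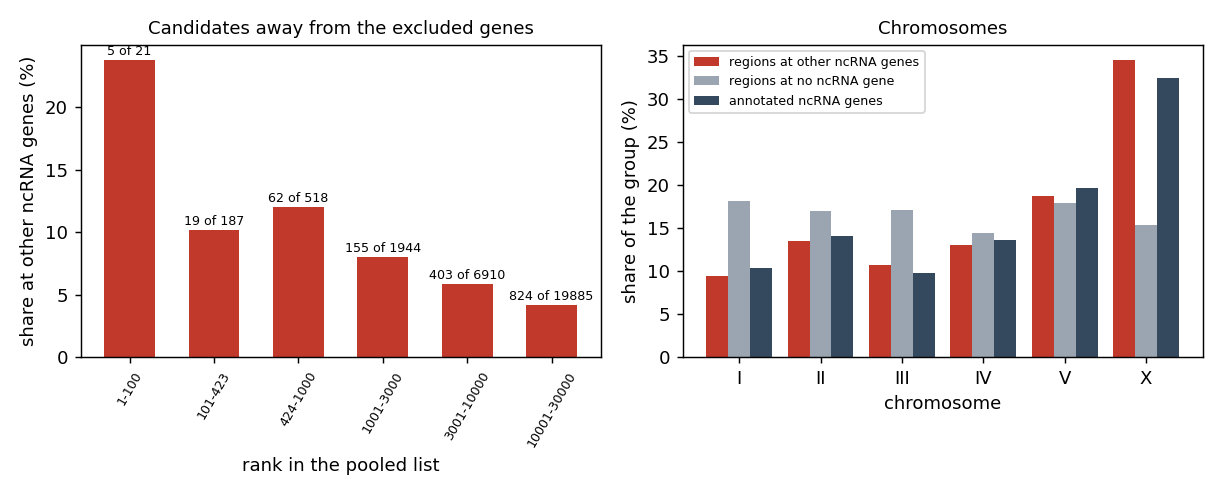
The left panel plots the share of candidates away from the excluded genes that lay at other ncRNA genes, in percent, by rank in the pooled list, with the counts above the bars. The right panel plots the share of each group on each chromosome, in percent, for regions at other ncRNA genes (red), regions at no ncRNA gene (grey) and the annotated genes (dark). The grey group leaves out regions at the excluded genes too. The left bars are tallest at ranks 1 to 100 (23.8%) and lowest beyond rank 10000 (4.14%), and on X the red and dark bars stand at 34.6% and 32.5%.

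A member lay at 1803 of the 7759 genes, or 23.2%, and 35 genes had an optimal one. These counts are larger than the counts of regions because 379 members, 10 of them optimal, had 2 or more ncRNA genes within reach. The summit was inside a gene for 805 members (54.8%) and for 19 of the 24 in the optimal set. In the other 5 the nearest ncRNA gene lay 15 to 72 bp away, with the summit upstream of it in 3 cases and downstream in 2. In 12 of the 19 the summit was within 50 bp of the gene's first base. A gene annotated on both strands has 2 such ends, and the end nearer the summit was used. This held at F16A11.7, W01H2.6, K06G5.6 and T13H2.7, where the other strand's first base lay 175, 74, 100 and 131 bp from the summit. The 35 genes had a median length of 148 bp. The share within 50 bp was not counted over the other members, so no preference for gene starts can be read from it.

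The 2 replicates were matched to the 24 by any overlap. A replicate's top set is here its regions of highest signal, as many as the optimal set holds. In replicate 1, 14 of the 24 had a region in the top set, and in replicate 2, 20 did. Both held for 12 of 24, against 75 of the 184 other optimal peaks away from the excluded genes (40.8%). The signal of a member in one replicate was at most 2.12 times that in the other, and the median ratio was 1.23. Replicate 1 was higher at 11 and replicate 2 at 12 members, while B0244.14 had no overlapping region in replicate 2. The regions at W01D2.7 and W01D2.9 overlap the same replicate regions, so these counts take them in both. Over the 23 with both values Spearman's rho of the replicate signals was 0.53 and Pearson's r 0.82, and over all 789 members with both they were 0.20 and 0.62. The replicates share 1 control library, and rho and r are given as a description.

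**Figure D2:**
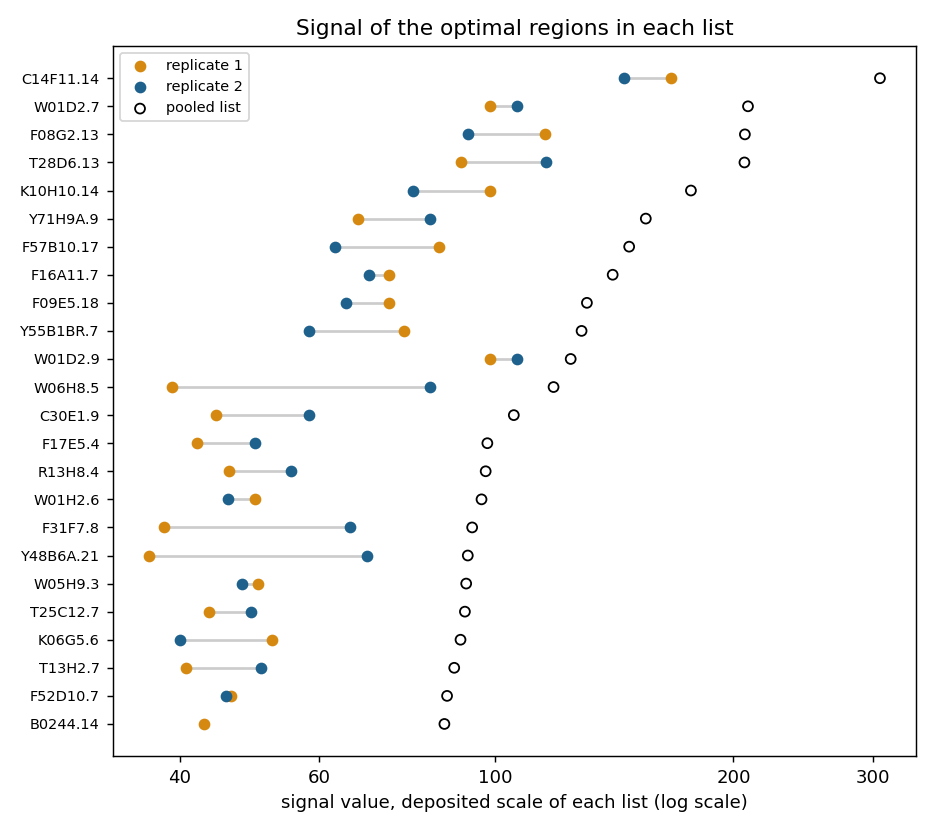
The signal value of the 24 optimal regions, on the deposited scale of each list and a log axis, in replicate 1 (orange), replicate 2 (blue) and the pooled list (open circles), one region per line in order of pooled rank and named by the ncRNA gene nearest the summit. The pooled values run from 306 at C14F11.14 to 86.4 at B0244.14, and the widest replicate gap is at W06H8.5, with 39.1 and 82.8.

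The member of highest signal was at C14F11.14, a 147 bp gene at chrX:6207835-6207981 on the plus strand. Its signal was 167 in replicate 1, where it ranked 16, and 145 in replicate 2, where it ranked 23, and 306 in the pooled list, also at rank 16. It was high in both replicates and its summit lay 22 bp inside the gene. The sequence shown above has the letters of a B box beginning 64 bp after the gene's first base, and none of an A box within 100 bp of the summit. The nearest protein-coding start, of T13C5.6, was 170 bp away, with the summit upstream of it. At this summit 80.0% of the 32-base words occurred once in the genome.

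The region at the overlapping genes T28D6.13, T28D6.15 and T28D6.10 had 90.6 in replicate 1 and 116 in replicate 2, with 206 in the pooled list at rank 65. The region lay in an intron of tba-7, an alpha-tubulin gene. It was the only one of the 24 with letters of both boxes. The A box began 50 bp upstream of T28D6.10, a 68 bp gene on the minus strand that starts 44 bp from the summit, and the B box began 7 bp upstream and ran into its first bases. T28D6.15, of 186 bp on the same strand, covers both. The region at K10H10.14 and K10H10.11 had 98.7 in replicate 1, 78.8 in replicate 2 and 177 in the pooled list, at rank 98. Its B box stood 31 bp upstream of K10H10.11, an 80 bp gene that lies whole within a 284 bp gene on the same strand, K10H10.14. In both places the boxes thus began upstream of the shorter gene and lay inside the longer one.

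Over all ranks the boxes were about as common or less common among the members than elsewhere. In the optimal set the B box was more frequent at members than at the other peaks away from the excluded genes. It was less frequent at members than over all optimal peaks. Within 100 bp of the summit, on either strand, an A box stood in 14.7% of members and 14.5% of the other candidates, and a B box in 10 of 1468 members (0.681%), in 0.957% of the other candidates and in 1.86% of all 30000. Both boxes stood in 6 members (0.409%) and 0.525% of the other candidates. In the optimal set a B box stood at 3 of 24 members, against 5 of the 184 other peaks away from the excluded genes (2.72%), and at ranks 1 to 100 at 3 of 5 members, against 1 of 16. The counts are small and were not tested. Of these 6, the ones at T28D6.13, T22B2.9 and ZK816.9 ranked 65, 443 and 591, and those at T27A8.6, Y46E12A.11 and C54E10.9 ranked 19733, 25876 and 28676. The motifs are degenerate and a match of letters shows neither a promoter nor its absence.

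The other short genes among the best 100 were W01D2.7 and F08G2.13. The region at W01D2.7, a 58 bp gene at chrII:14804502-14804559, had 98.7 in replicate 1 and 107 in replicate 2, with 209 in the pooled list at rank 62. F08G2.13, a 75 bp gene at chrII:13834449-13834523 on the minus strand, had 116 in replicate 1 and 92.5 in replicate 2, with 207 in the pooled list at rank 64. Both were in the best 100 of each replicate. The region at W01D2.9, an 82 bp gene that starts at chrII:14804795, had a pooled signal of 125 at rank 177. In each replicate it overlapped the same region as W01D2.7, by 71 and 38 bp, and the replicate summits lay 9 and 7 bp from the pooled summit of W01D2.7. The replicate lists therefore gave no signal of their own for W01D2.9.

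CATTCCTC began 90 bp before W01D2.7 and 70 bp before both F08G2.13 and W01D2.9, and TATATATA began 39 bp further on in all 3. The pair of elements was taken from these sequences after they had been seen. With a spacing of 30 to 50 bp between the starts, the pair occurred at 4 places in the genome on either strand: these 3 and 1 on chromosome I that had no candidate within 300 bp. From the start of the first element to the end of the second, 27 of 47 bases were identical in all 3 copies, and pairs of copies matched at 66.0 to 74.5% of bases. These counts take in both elements, by which the copies were chosen, so those bases match by construction. The bases between the elements were not counted alone. The genes also share the 6-base words GGGTTA and CTTGAC, in that order. Over all ranks the single elements were about as common near the summits of members as elsewhere. CATTCCTC stood within 100 bp of the summit in 0.749% of members and 0.725% of the other candidates, and TATATATA in 0.681% of members and 0.675% of the other candidates, both strands searched. In the optimal set CATTCCTC stood at 1 of 24 members and 0.543% of the other peaks, and TATATATA at 2 of 24 and 0.543%. These members include regions from which the elements were taken. Of the 3 regions, this window held both elements only at W01D2.9.

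The summit did not stand at a fixed place relative to these 3 genes. It lay 17 bp past the end of W01D2.7, 36 bp inside F08G2.13 and 15 bp upstream of W01D2.9. These 3 regions were 138, 162 and 102 bp wide, and those at T28D6.13 and C14F11.14 were 141 and 239 bp wide. The other 19 of the 24, and all but 5 of the 1468 members, had the full width of 370 bp. Of the 27997 other candidates, 15 were narrower than 370 bp. With regions at the excluded genes counted too, 77 of all 30000 candidates were narrower. All 77 were in the optimal set, 71 of them at ranks 1 to 100. How the widths were set was not stated.

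**Figure D3:**
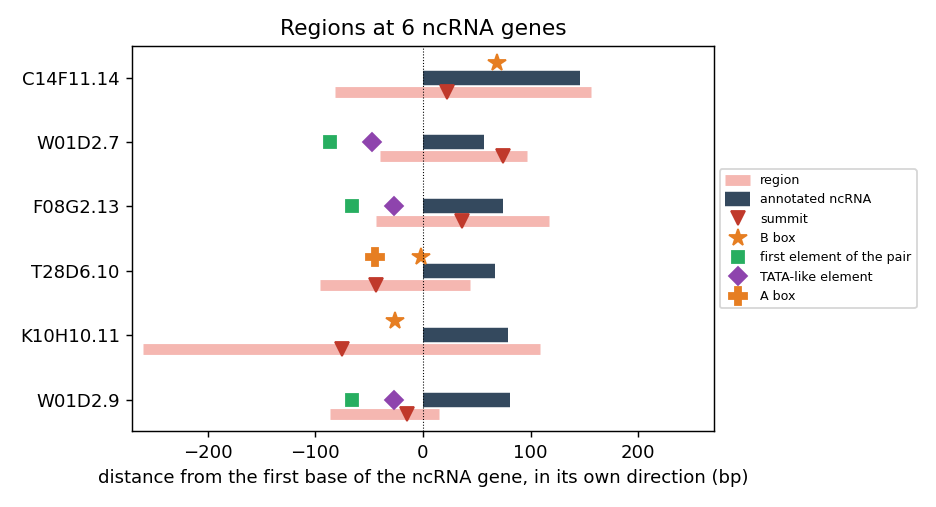
The deposited region (pink), its summit (red triangle) and the annotated ncRNA gene (dark bar) at 6 genes, against the distance in bp from the gene's first base in the gene's own direction. Green squares and purple diamonds mark the CATTCCTC and TATATATA elements, and orange symbols the A box (cross) and B box (star). The boxes of T28D6.10 and K10H10.11 begin left of the gene, that of C14F11.14 inside it, and the element pairs start 70 or 90 bp before the gene.

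Runs of alternating CA or GT of at least 20 bp within 100 bp of the summit were found at 6 of the 24 optimal members, against 4 of the 184 other optimal peaks away from the excluded genes (2.17%). Over all ranks they stood at 18 of 1468 members (1.23%) and 68 of 27997 other candidates (0.243%). The 18 were concentrated near the top of the list. Between rank 100 and the end of the optimal set, 31.6% of members had such a run, against 2.38% of the other candidates. From there to rank 1000, 14.5% of members had one, against 0.658%. From rank 1000 to 3000 it was 0.645% of members, against 0.9503%.

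Run lengths were measured only inside the 201 bp searched around the summit, so a run may be longer than stated. At Y71H9A.9, 110 bp of the run lay in this window. The region had 67.2 in replicate 1 and 82.9 in replicate 2, with 155 in the pooled list at rank 121. Its summit was 162 bp upstream of sto-4, a stomatin gene. F16A11.7, annotated on both strands in an intron of ppfr-1, a protein phosphatase 4 regulatory subunit gene, had a run of 114 bp. Its signal was 73.5 in replicate 1 and 69.5 in replicate 2, with 141 in the pooled list. Y55B1BR.7, a 131 bp gene with a run of 126 bp, had 76.8 in replicate 1 and 58.2 in replicate 2, with 129 in the pooled list. All 3 were in the top set of both replicates.

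K06G5.6, with a run of 144 bp, had 52.3 in replicate 1 and 40.04 in replicate 2, and 90.5 in the pooled list. The region at T13H2.7 and T13H2.9, 715 bp upstream of spat-3 and with a run of 118 bp, had 40.8 in replicate 1 and 50.7 in replicate 2, and 88.9 in the pooled list. The shortest run measured in the window, of 22 bp, was at Y48B6A.21 and Y48B6A.18 near hmg-1.1, a high mobility group gene. The signal there was 36.6 in replicate 1, 69.0 in replicate 2 and 92.4 in the pooled list. These 3 lay lower in the optimal set, at ranks 349 to 381, and none was in the top set of both replicates.

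Sequence at the repeats was often not unique in the genome. The share of 32-base words within 50 bp of the summit that occur once was 5.71% at K06G5.6, 11.4% at Y55B1BR.7, 42.9% at T13H2.7, 44.3% at F16A11.7 and 51.4% at Y71H9A.9, and 100% at Y48B6A.21. Over the 18 members with a run the median share of unique words was 58.6%. Of these 18, 13 had words that were not unique, whereas 5.86% of all members had any word that was not unique. How reads from such repeats were placed was not stated, and the part of mapping in these signals was not tested. Without the 18, 18 of 1450 members were optimal (1.24%), against 0.644% of the 27929 other candidates without a run.

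**Figure D4:**
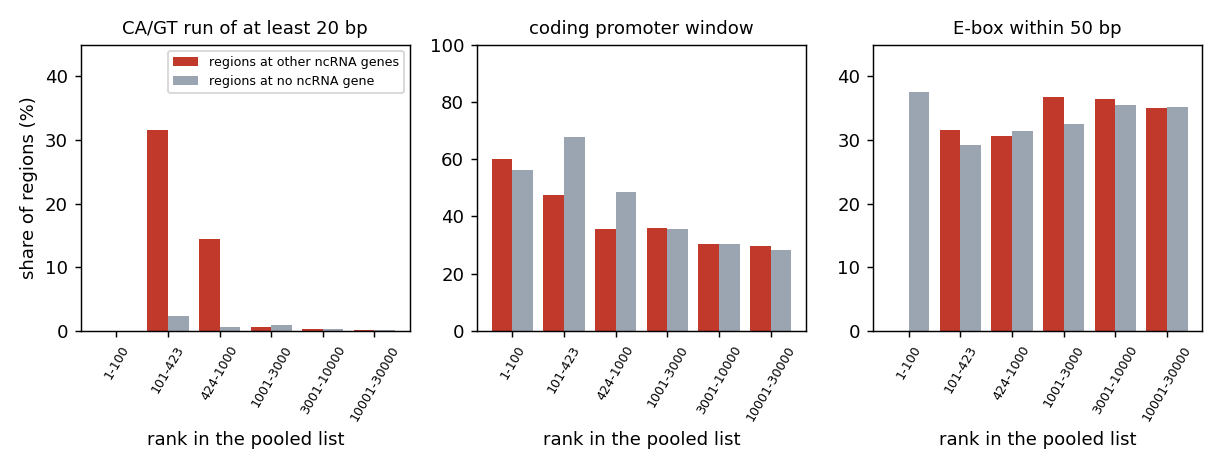
The share of regions, in percent, with a CA or GT run of at least 20 bp within 100 bp of the summit, with the summit in a protein-coding promoter window, and with an E-box within 50 bp, by rank in the pooled list, for regions at other ncRNA genes (red) and regions at no ncRNA gene (grey). Regions at the excluded genes are left out of the grey group as well. The promoter panel has its own vertical scale. The red bars for runs stand at 31.6% between rank 100 and the end of the optimal set and at 14.5% in the next group, against grey bars of 2.38% and 0.658%, and the E-box bars lie close together in every group but the first.

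The E-box CANNTG, which reads alike on both strands, stood within 50 bp of the summit in 35.3% of members and 35.0% of the other candidates. In the optimal set it stood at 6 of 24 members and at 29.9% of the other peaks. At ranks 1 to 100 it stood at 0 of 5 members, against 37.5% of the 16 other candidates away from the excluded genes. Of all candidates at those ranks 31.0% had one. With 5 members this is too few to read a difference from, and none was tested. The 6 optimal members with an E-box were at F57B10.17, W06H8.5, C30E1.9, R13H8.4, F31F7.8 and F52D10.7.

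Protein-coding starts lay near many of the ncRNA genes. A promoter window, taken as the 1000 bp before and the 200 bp after any protein-coding transcript start, held the summit of 31.1% of members and 29.8% of the other candidates. In the optimal set it held 12 of 24 members, against 123 of 184 other peaks (66.8%). The median distance to the nearest protein-coding start was 786 bp in the 24 and 267 bp in the 184. An ncRNA gene and a coding promoter at one summit cannot be told apart by position.

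Among those 12, the strongest with no B box, element pair or repeat, at F57B10.17, lay between tre-1, a trehalase gene, and dad-1, an oligosaccharyltransferase subunit gene. Its signal was 84.9 in replicate 1 and 62.8 in replicate 2, with 148 in the pooled list at rank 130, and its summit was 44 bp upstream of tre-1. The region at F09E5.18 and F09E5.19, in the windows of F09E5.11 and bmy-1, had 73.6 in replicate 1 and 64.9 in replicate 2, with 131 in the pooled list. Both were in the top set of each replicate.

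The promoter windows of 3 more coding genes held weaker regions. The region at F31F7.8 and F31F7.6, 361 bp upstream of the kinase gene mrck-1, had 38.2 in replicate 1 and 65.6 in replicate 2, with 93.6 in the pooled list. That at F52D10.7 and F52D10.12, 456 bp upstream of ftt-2, which encodes a 14-3-3 protein, had 46.5 in replicate 1 and 45.8 in replicate 2, with 87.0 in the pooled list. B0244.14, with its summit 68 bp upstream of ida-1, a gene for a dense core vesicle protein, had 43.0 in replicate 1 and 86.4 in the pooled list at rank 407. A CT or GA run, 48 bp of it in the window, stood within 100 bp of that summit. Such runs of at least 20 bp stood at 24 members (1.63%) and 0.186% of the other candidates.

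In 5 of the 24 the summit was in an intron of a protein-coding gene and outside its exons, as at tba-7 and ppfr-1 above. F17E5.4, a 303 bp gene in an intron of lin-2, which encodes a scaffold protein of the MAGUK family, had 42.1 in replicate 1 and 49.9 in replicate 2, with 97.8 in the pooled list. R13H8.4, a 59 bp gene in an intron of daf-16, the FOXO transcription factor of the insulin pathway, had 46.2 in replicate 1 and 55.3 in replicate 2, with 97.4 in the pooled list. T25C12.7, a 355 bp gene in an intron of lin-14, a regulator of developmental timing, had 43.6 in replicate 1 and 49.2 in replicate 2, with 91.7 in the pooled list. All 3 had 100% unique words and no repeat of at least 20 bp, and they ranked 441 to 623 in replicate 1 and 268 to 393 in replicate 2.

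3 of the 35 genes with an optimal member were 400 bp or longer. C30E1.9, at 14770 bp on chromosome X the longest gene of the class, held 7 members. Only the one 127 bp after its first base was optimal, with 44.4 in replicate 1 and 58.3 in replicate 2, and 106 in the pooled list at rank 254. The other 6 ranked as low as 13022. W06H8.5, of 2525 bp, held 3 members. The optimal one lay 1231 bp inside it, in an exon of the overlapping protein-coding gene W06H8.6 but not in a coding exon, with 39.1 in replicate 1, where it ranked 825, and 82.8 in replicate 2, where it ranked 110. W05H9.3, of 1512 bp, had its summit 40 bp inside its first base, with 50.3 in replicate 1 and 48.0 in replicate 2, and 92.0 in the pooled list. It was in the top set of both replicates, which the other long genes were not.

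W01H2.6, 82 bp long and annotated on both strands, lay on chromosome X with its summit 27622 bp from hlh-13, the gene copied in the transgene. It had 49.8 in replicate 1 and 46.0 in replicate 2, with 96.2 in the pooled list at rank 321. The 4 other members within 30000 bp of hlh-13 ranked 2094 to 24243, and the nearest, at F48D6.5, was 3874 bp away with a signal of 39.9.

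The optimal set ended at a signal of 85.3, and the members just below it were close to those just inside. B0244.14 stood at 86.4 and F52D10.7 at 87.0. Outside the set, W02F12.11 had 85.0 at rank 427, C53C11.7 84.7 at rank 433 and T01B6.5 84.6 at rank 435. W02F12.11 was in the top set of replicate 1, at rank 393, with 48.0, and not in that of replicate 2, with 40.03.

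Of the 7759 genes only 9 carry a curated symbol in place of a sequence name, and none had an optimal member. The strongest region was at srpr-3, a 299 bp gene named, like the excluded srpr genes, for the signal recognition particle RNA, which directs secreted proteins to the membrane. It had 2 members, the better at rank 599 with a signal of 75.6. linc-171 had 1 member at rank 3253 with 51.2, and srpr-1.1 had 1 at rank 12648 with 36.2. The other 6 had no candidate: tts-1, tts-2, rncs-1, yrn-1, lfor-1 and lfor-2. The genes excluded by name, such as rpr-1, were set aside before the 9 were counted. Among all 7759 genes only 35 had an optimal member, and 23.2% had any member. With so low a share, 9 genes are too few for the lack of an optimal member to show a difference. Of the 9, 3 had a member, and these counts are a description.

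The identifiers of the genes separate an older and a newer part of the annotation, a split made after the values were seen. Of the 7759 genes 91 have a WormBase identifier lower in number than those of the large later block. They held 38 members, of which 7 were optimal (18.4%), against 17 of the 1430 members at later identifiers alone (1.19%). The 7 were at W01D2.7, F08G2.13, T28D6.10, K10H10.11, W06H8.5, C30E1.9 and W05H9.3. They thus include 4 of the 5 members in the best 100 and the 3 longest genes with an optimal member.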

How the data were processed

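The authors' region lists were used as deposited, 1 for each of 2 replicates, 1 for the pooled reads and the optimal set. Every region has a signal value and a −log10 q-value deposited by the authors. According to the submitters' file manifests, a replicate's list was made from its own alignments and a control library, the pooled list used both replicates with that control, and the irreproducible discovery rate over these lists gave the optimal set. Positions are on ce11, per the labels. No aligner, peak caller or threshold was named in these sources. The −log10 q-value was tied at 2.36 for the strongest regions in the deposited list, so regions were ranked by signal. Without read counts the depth is unknown, and the 95% Wilson intervals cover only how many regions there are.

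Annotation was Ensembl release 115 and sequence RefSeq, both of WBcel235, and 7763 of 7764 ncRNA genes had the same coordinates in both. Regions were placed by summit. The A box and B box of internal RNA polymerase III promoters were searched on both strands within 100 bp of the summit, the E-box CANNTG within 50 bp. Uniqueness is the share of 32-base words within 50 bp of the summit that occur once in the genome. No difference was tested: there is 1 group and regions are not replicates. Placement and motif functions were tested on simulated data. The tools were matplotlib 3.10.9, scipy 1.17.1, pandas 2.3.3 and numpy 2.4.6 in Python 3.11.15.

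The members and the lists were chosen with earlier results of these data known. The element pair, the repeats and the split by identifier were chosen after the sequences or values had been seen. The rule for named genes took every member in the optimal set, the 3 just below it, members outside it with a curated symbol, the nearest coding start of each optimal member, and sequences of at most 8 optimal members off chromosome I. Alternatives changed the distance to the gene, the excluded genes, the position used, the set, the replicate, the overlap, the promoter window and the motif window.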

Additional observations from a re-analysis of the deposited data

How the results depend on the processing

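The 24 optimal members and their share of 1.63% stayed within the spread set for them when the summit had to lie inside the gene (19 members, 2.36%) or within 250 bp (31, 1.43%), when other classes were excluded within 500 bp, with tRNA pseudogenes and rRNA genes excluded too, with regions placed by midpoint, with unique 32-base words only (18, 1.30%, against 0.645% of all candidates away from the excluded genes), and without members at a CA or GT run (18, 1.24%, against 0.674%), an alternative chosen after seeing the data. The count moved to 12 among members with no promoter window or coding exon at the summit (1.25%, against 0.483% of all candidates away from the excluded genes under the same rule), and to 12 with the better 50% of the optimal set (0.817%, against 0.241%). With 1 replicate left out, the top set of the other held 33 to 34 members, 2.42 to 2.46% of them, against 0.783 and 0.791% of all candidates away from the excluded genes in those lists, and the median rank percentile was 40.5 to 42.2 (38.6 pooled). Matching to both replicates moved to 20 of 24 with top sets 2 times as large, and was 8 to 12 under the other rules. The counts inside the gene, in a promoter window and with both boxes stayed within 1.5 times. No paired analysis was possible because there is 1 group. Depth is unknown, so counting error per region cannot be given.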
